A study of Mus musculus with 102 samples.

Results

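Isolated CpGs are here the CpGs of the capture bisulfite table that had no other CpG of that table within 150 bp on either side. By start position on mm9 there were 64843 of them among 2177608 measured CpGs, or 2.98%. Their median distance to the nearest measured CpG was 230 bp, against 11 bp for the other 2112765. The rule sees only CpGs with enough reads. In the mm9 sequence itself, 38504 of the isolated CpGs (59.4%) had no further CpG within 150 bp, and 26339 (40.6%) had at least 1 CpG there that was not measured.

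The study followed the loss of DNA methylation in mouse embryonic stem cells (mESCs) on a C57BL6/J background to separate gain from loss of methylation at each CpG. WT was the parental line, with Tet1, Tet2 and Tet3 and with intact, floxed Dnmt3a and Dnmt3b. TTKO, the Tet triple knockout, was made from that line, in a single clone, with mutations in all Tet alleles, and also carries the floxed Dnmt3a and Dnmt3b. TTKO cells were sampled by capture at day 0, not transduced, and at days 4, 8, 10, 13, 17 and 29 after transduction with Cre protein, which removes catalytic exons of Dnmt3a and Dnmt3b, whereas WT cells were captured at day 0 only. Captured samples came in 3 replicates per time point, but the table holds 1 pooled column per time point, so no value from it has an error between replicates, and a test on its reads compares pooled libraries and not conditions. No mock-treated cells were in that table. Amplicon libraries, used below for a single CpG, were made from both lines at day 0 and the same later days, in 3 replicates. Their later days had cells given Cre and mock-treated cells, which got the Cre buffer without the protein. Cre excision is not complete in every cell, and WT and TTKO differ by clonal history as well as by TET, so a difference between the lines cannot be told apart from a difference between clones.

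Methylation of a CpG is copied onto the new strand at replication by DNMT1, is added to unmethylated sites by DNMT3A and DNMT3B, and is removed by oxidation that the TET enzymes begin. Most CpGs of mammalian genomes stand far apart and are methylated, while CpG islands at promoters hold many CpGs close together and are mostly unmethylated. DNMT1, DNMT3A and DNMT3B are known to act along a stretch of DNA, and a CpG with no near neighbours offers them little else to act on in reach.

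Sequences around 8 of the isolated CpGs show what such sites look like. Each is 122 bases of the mm9 plus strand, and the capitals mark the CpG. None of these sequences holds another CpG. The members were chosen by the distance to the next CpG of mm9 or by their values, which are given further below. Those between genes are named after the gene with the nearest start, which lay 17813 bp (Tcp11l2) to 1161108 bp (Vstm2a) away. The first pair stood farthest from any other CpG.
CpG named after Pcdh17, chr14:83999162-83999283: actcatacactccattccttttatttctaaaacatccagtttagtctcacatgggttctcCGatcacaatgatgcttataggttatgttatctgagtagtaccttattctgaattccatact
CpG named after Vstm2a, chr11:14996559-14996680: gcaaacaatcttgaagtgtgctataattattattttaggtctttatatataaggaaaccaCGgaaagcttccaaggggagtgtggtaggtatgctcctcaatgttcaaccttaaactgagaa
The next had a middle level and kept least of it after Cre.
CpG named after Tmem92-ps, chr11:94711962-94712083: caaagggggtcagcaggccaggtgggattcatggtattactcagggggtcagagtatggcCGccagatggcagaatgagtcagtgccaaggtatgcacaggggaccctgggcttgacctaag
The 3 after it were the members with the largest excess of TTKO over WT.
CpG in an intron of Garnl3, chr2:32930712-32930833: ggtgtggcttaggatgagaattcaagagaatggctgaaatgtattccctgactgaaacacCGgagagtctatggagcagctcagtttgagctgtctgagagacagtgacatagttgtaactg
CpG in an intron of Agpat9, chr5:101292397-101292518: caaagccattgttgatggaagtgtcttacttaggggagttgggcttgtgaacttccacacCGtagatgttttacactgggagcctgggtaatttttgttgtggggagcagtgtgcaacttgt
CpG in an intron of Arid5b, chr10:67722617-67722738: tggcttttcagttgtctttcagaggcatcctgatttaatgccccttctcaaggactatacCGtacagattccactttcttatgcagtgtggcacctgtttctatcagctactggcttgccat
The last pair had the largest excess of WT over TTKO.
CpG named after Tcp11l2, chr10:84021498-84021619: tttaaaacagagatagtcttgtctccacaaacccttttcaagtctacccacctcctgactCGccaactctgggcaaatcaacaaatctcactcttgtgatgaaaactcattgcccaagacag
CpG in an intron of Dennd1a, chr2:38053527-38053648: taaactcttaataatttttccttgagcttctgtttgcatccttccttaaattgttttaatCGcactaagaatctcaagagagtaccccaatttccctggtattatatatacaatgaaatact

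Isolated CpGs lay in sequence poor in G and C. The median GC content of the 300 bases around them was 44.3%, against 54.0% around all other CpGs, and the mean number of CpGs in those bases was 1.85 against 13.1. In the GENCODE M1 annotation, 48.5% of them were intergenic and 41.1% intronic, with 7.39% within 1000 bp of a protein-coding transcription start and 3.01% in other exons. For all other CpGs these shares were 27.6%, 23.4%, 41.2% and 7.76%. The median distance to a transcription start was 16296 bp, against 2192 bp. Members were found on all 20 chromosomes counted, with 1544 (X) to 5213 (11) on each, and 8 on Y.

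Fewer reads fell on isolated CpGs than on the others. Their median coverage was between 117 reads at day 8 and 194 reads at day 10, against 153 and 265 reads for the others in the same columns. WT had a median of 175 reads on them and TTKO at day 0 a median of 174, so the lines were compared at like depth. At 1367 members (2.11%) some column held over 1000 reads, up to 15083, and 2.39% of the other CpGs did. Such sites can collect reads from several copies of a sequence, which was not tested, and without them the difference in WT level given below was 8.75 in place of 8.67 points.

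In TTKO cells at day 0, isolated CpGs had a mean level of 59.9% and a median of 68.7% (quartiles 47.2% and 78.6%). The other CpGs had a mean of 35.1% and a median of 20.9%. Under 10% methylation were 7.55% of the isolated CpGs and 44.3% of the others, and 21.2% of the isolated CpGs had 80% or more, against 14.95%. Levels of 90% or more were rare, at 1284 members (1.98%). In WT, the isolated CpGs had a mean of 46.8% and a median of 52.4%, and 13.2% of them were under 10%. At day 29 after Cre, their mean in TTKO had come to 31.8% and their median to 30.9%, with 23.7% under 10%. Members with unmeasured CpGs of mm9 near them differed little from those without, with mean TTKO day 0 levels of 60.6% and 59.5% and mean WT levels of 47.0% and 46.6%.

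**Figure D1:**
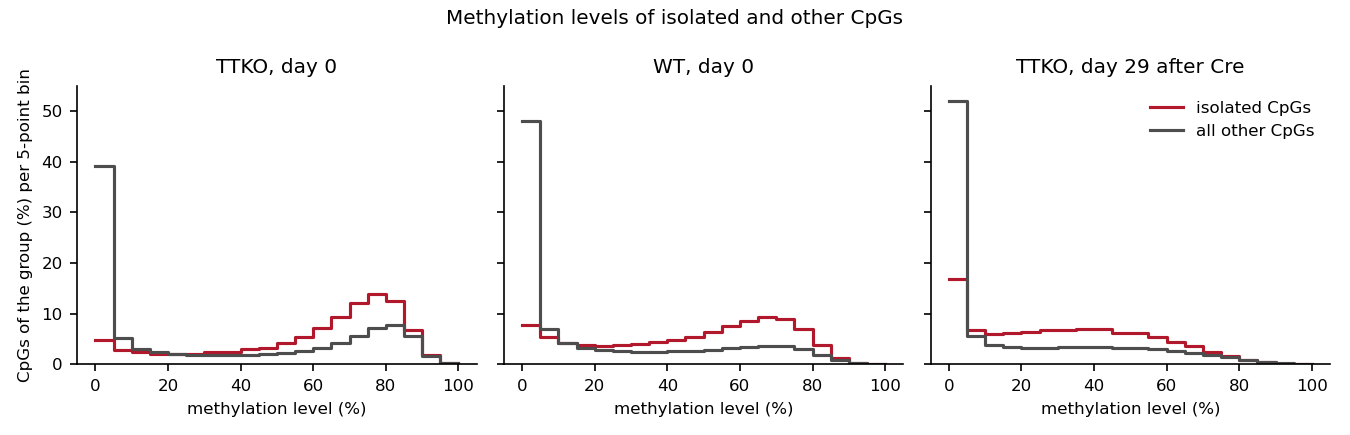
Share of CpGs (%) in each 5-point bin of methylation level, for TTKO at day 0, WT at day 0 and TTKO at day 29 after Cre, with the 64843 isolated CpGs in red and the 2112765 others in grey. The peak of the others under 5% (39.1%, 48.2% and 51.9% of them) is far lower in the isolated CpGs (4.78%, 7.83% and 16.9%), though at day 29 it is their tallest bin, and their peak of high levels moves left and flattens.

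Since the levels of the groups differ, the comparisons below with matched others were made at an equal TTKO day 0 level, by weighting the other CpGs to the isolated CpGs' distribution over bins of 1 point. CpGs share libraries and are no replicates, so no test was run on these values. Their stability was described by the value within each of the 20 chromosomes.

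At equal TTKO level, isolated CpGs were more methylated in WT. Their mean WT level was 46.8%, and that of matched others was 38.1%, a difference of 8.67 points. Within single chromosomes the difference was between 7.52 points (X) and 9.85 points (19), and positive on 20 of 20. With others matched on GC content as well as level, it was 4.17 points. Unmatched, WT levels fell short of TTKO levels by 13.2 points in isolated CpGs and 12.4 points in the others. Unmatched TET effects, defined next, differed by -0.78.

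The TET effect was taken as log2 of the odds of methylation in TTKO minus log2 of the odds in WT, over CpGs of 10 to 90% in TTKO. Under the study's model, with an equal gain rate in both lines, it is the log2 ratio of the loss rates with and without TET. Its median was 0.77 over 58713 isolated CpGs and 1.53 over matched others, a difference of -0.76. The odds ratio between the lines was thus 1.69 times larger at the others. On the chromosomes the difference ran from -0.84 (4) to -0.61 (X), and it was negative on 20 of 20. With matching on GC content as well, the difference was -0.30. The middle 50% of isolated CpGs had TET effects between 0.28 and 1.58, and 10436 of them (17.8%) were over 2, against 39.0% of the others without matching. The effect was under 0, with more methylation in WT, at 7847 isolated CpGs (13.4%), against 5.45% of the others, again without matching.

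The gap was widest at middle levels. Among CpGs of 30 to 40% in TTKO, 3094 isolated CpGs had a mean WT level of 25.03% and matched others 15.5%, and the TET effects were 0.63 and 2.01. At 50 to 60% the WT levels were 40.1% and 27.9%, and the TET effects 0.63 and 1.85. For 12472 isolated CpGs of 80 to 90% the TET effects were 0.94 and 1.32, and at 90% and over, for 1284, they were 1.44 and 1.58. The effect of isolated CpGs thus stayed between 0.52 and 0.94 from 10% to 90%, while that of matched others had its highest values between 20% and 50%. Under 10% the isolated CpGs had a median of 0.02 (quartiles -0.69 and 0.81) with 4894 members, and matched others 0.73.

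**Figure D2:**
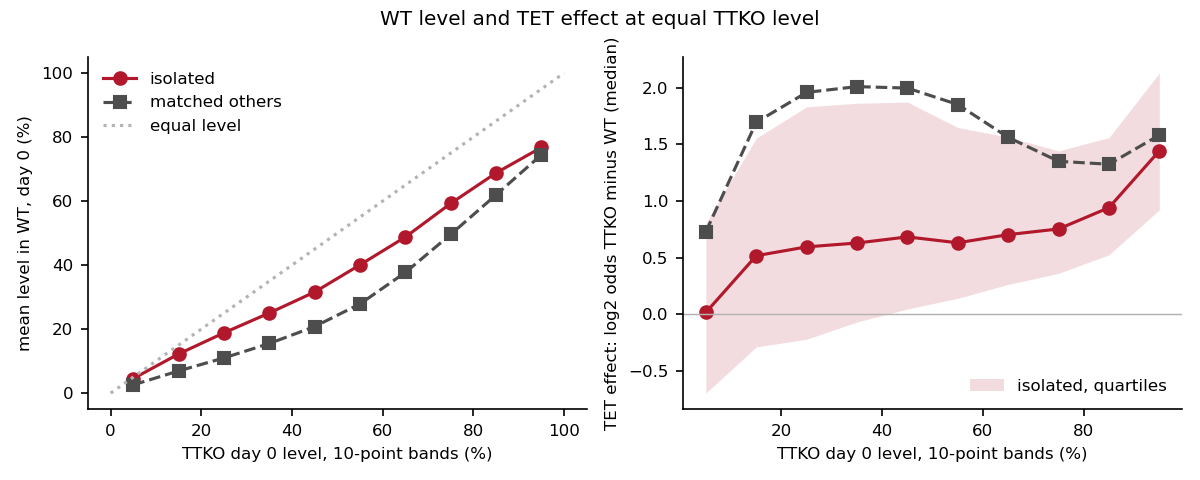
Mean WT level (left, %) and median TET effect (right, log2 odds in TTKO minus WT) in 10-point bands of the TTKO day 0 level, for isolated CpGs (red circles) and matched others (grey squares), with the quartiles of isolated CpGs shaded and equal levels dotted. Isolated CpGs lie above the matched others in WT level in all 10 bands and below them in TET effect, where the gap is smallest at 90% and over.

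Fisher's exact test on pooled reads (two-sided, Benjamini-Hochberg over all CpGs, threshold 0.05) called 29897 isolated CpGs (46.1%) less methylated in WT than in TTKO. The background over the table was 44.7%, but at equal TTKO level 71.4% of the others were called, 66.7% at equal level and coverage, and 62.5% at equal level and GC content. More methylation in WT was called at 1082 isolated CpGs (1.67%), beside a background of 0.907% and shares of 0.628% in others of equal level and 1.42% in others of equal level and GC content. Those 1082 had a median level of 18.5% in TTKO and 33.7% in WT, and came to 2.60% at day 29. Of them 53.0% were under 20% in TTKO, against 11.8% of all isolated CpGs, 50.6% lay within 2000 bp of a measured CpG under 10%, against 29.6%, and their median GC content was 41.0%. The test takes no account of variation between replicates.

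Loss of methylation after Cre was nearly equal on average. Isolated CpGs of at least 20% at day 0 kept 53.6% of their summed level at day 29 (57189 CpGs), and matched others kept 53.6%, a difference of -0.01 points. Single chromosomes gave differences from -1.73 points (X) to 0.58 points (17), and only 10 of 20 had the sign of the whole. On X, isolated CpGs kept 51.1% and matched others 52.8%. At days 4, 8, 10, 13 and 17, isolated CpGs kept 97.3%, 89.5%, 83.3%, 78.3% and 67.5%. For matched others the shares were 96.6%, 88.8%, 82.6%, 77.5% and 66.8%.

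Single bands of level differed in either direction. At 10 to 20% in TTKO, isolated CpGs kept 15.6% of their level and matched others 20.6%. At 20 to 40% they kept 19.1% and 22.9%, although at day 4 isolated CpGs had still been higher, with 92.9% and 91.1%. At 60 to 80%, the band of 27516 isolated CpGs, they kept 52.9% and 51.4%, and at 90% and over 77.6% and 81.9%. The members themselves were widely spread. With at least 150 reads in every column, isolated CpGs of 60 to 80% kept a median of 50.6%, with 5% of them under 27.4% and 5% over 76.6%.

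**Figure D3:**
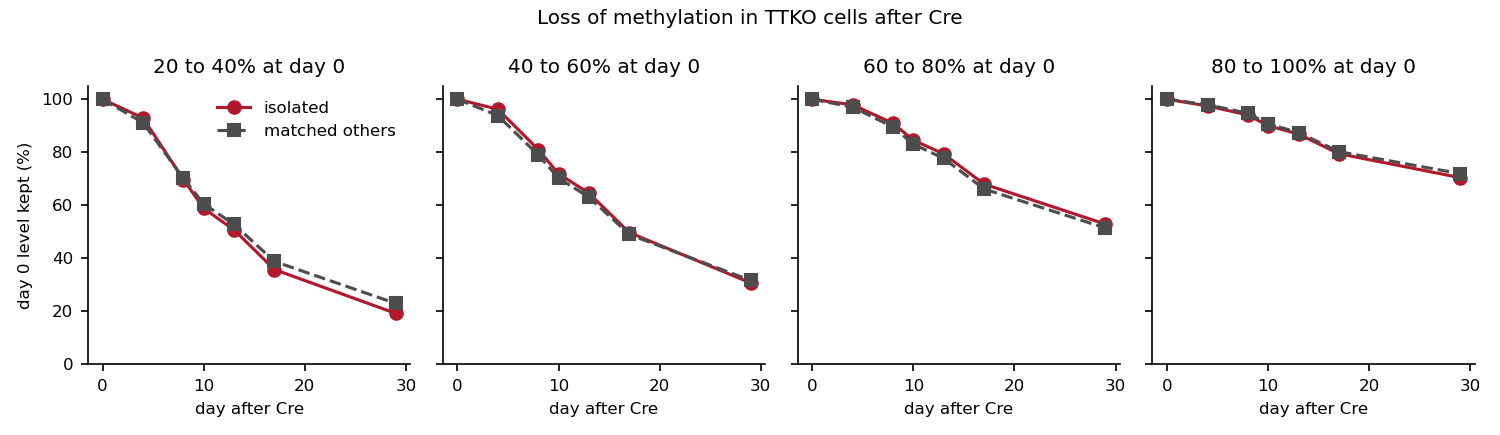
Share of the day 0 level kept (%) in TTKO cells by day after Cre, in 4 bands of the day 0 level, for isolated CpGs (red) and matched others (grey, dashed). The curves lie within 3.77 points of each other at every day and band, and fall more slowly the higher the day 0 level.

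Of the isolated CpGs, 58369 (90.02%) were called less methylated at day 29 than at day 0 by the same Fisher test, beside a background of 59.3%. At equal day 0 level the others were at 91.2%, at equal level and coverage at 89.0%, and at equal level and GC content at 92.3%. An increase was called at 4 members (0.00617%), beside a background of 0.171% and 0.0156% of others at equal level.

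Rates of gain (kme) and loss (kde) were fitted to each CpG's time course with the study's model. They were identified at 63793 isolated CpGs (98.4%) and at 78.5% of the others. The median log2 kde per day was -4.91 in isolated CpGs and in matched others, and the median log2 kme was -3.81 in both, with differences of 0.00 on a grid whose steps are 0.14. Without matching, the isolated CpGs had the lower kde (-4.91 against -4.36) and the higher kme (-3.81 against -4.50). At 10 to 20% in TTKO, kde was 0.28 and kme 0.28 higher on the log2 scale in isolated CpGs than in matched others, and at 90% and over both were again 0.28 higher.

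Spacing was then followed across all measured CpGs, with every class weighted to the isolated CpGs' levels. The TET effect fell with each step of distance to the nearest measured CpG. It was 1.89 for CpGs with a neighbour up to 10 bp away, 1.56 up to 50 bp, 1.1 up to 100 bp and 0.92 up to 150 bp. Isolated CpGs had 0.81 up to 300 bp, 0.71 up to 1000 bp and 0.66 beyond. The WT level rose along the same classes, from 35.0% in the nearest to 46.0% up to 300 bp and 48.4% beyond 1000 bp. Values did not step at 150 bp. The 7968 CpGs in the last 10 bp before the limit had a TET effect of 0.87 and a WT level of 45.3%, and the 6659 isolated CpGs in the first 10 bp past it had 0.86 and 45.3%. The kept share stayed between 53.0% and 54.3% in all 7 classes and had no order.

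Distance in the mm9 sequence, measured or not, gave a like fall, from 1.89 up to 10 bp to 0.76 between 150 and 300 bp and 0.62 over 300 bp (4638 CpGs). Within the isolated CpGs, the unmeasured neighbours moved with the value too. The TET effect was 0.74 with no mm9 CpG within 150 bp, 0.74 with 1, 0.82 with 2 and 0.97 with 3 or more (6414 CpGs), and the median day 0 coverage of these classes fell from 256.5 to 100 reads.

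GC content moved with the TET effect as well. Among isolated CpGs the effect rose from 0.47 under 40% GC (15612 CpGs) to 0.72, 0.91 and 1.14 in the classes from 40, 45 and 50%, and to 1.54 from 55% (2877 CpGs). Matched others of the same GC classes rose from 0.63 to 0.96, 1.33, 1.78 and 2.27. The gap between the groups was thus 0.16 in the class poorest in G and C and 0.73 in the richest. The kept share of isolated CpGs was between 51.5% and 54.8% in all 5 GC classes. Median coverage fell from 195 to 117 reads along them, and its part in the trend was not tested.

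**Figure D4:**
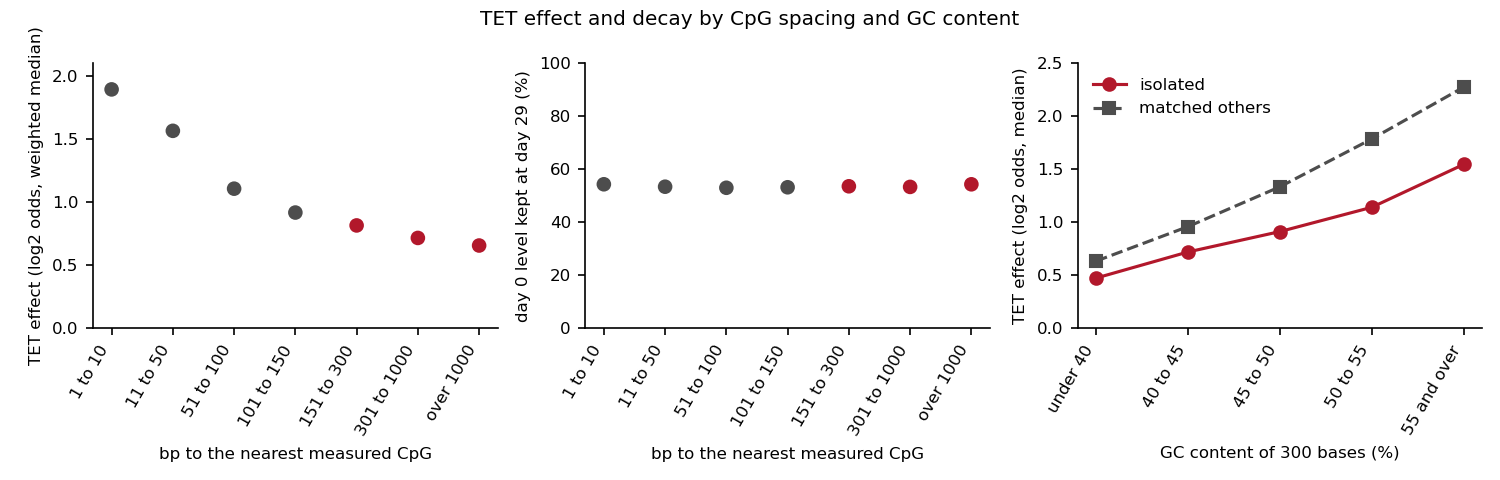
Left and middle, TET effect (log2 odds, weighted median) and share of the day 0 level kept at day 29 (%) by bp to the nearest measured CpG, all weighted to the isolated CpGs' levels, with isolated classes in red. Right, median TET effect by GC content of the surrounding 300 bases for isolated CpGs (red) and matched others (grey). The TET effect falls from 1.89 to 0.66 with distance and rises with GC content, while the kept share stays near 53%.

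In each class of gene position the TET effect of isolated CpGs was below that of matched others. Isolated CpGs near promoters (4790) had a mean TTKO level of 52.2% and a mean WT level of 38.1%, and a TET effect of 0.97, against 1.97 in matched promoter CpGs. In exons (1953) the effects were 0.90 and 1.86, in introns (26679) 0.80 and 1.40, and between genes (31421) 0.70 and 1.38. Isolated promoter CpGs kept 50.1% of their level at day 29 and matched ones 51.8%. Between genes the shares were 54.6% and 53.9%.

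Distance from low-methylated CpGs moved with both decay and TET effect. Of isolated CpGs of at least 20% in TTKO, 11.5% lay within 500 bp of a measured CpG under 10%, and 9.39% lay over 100000 bp from one, against 26.5% and 3.87% of the others. The former (6551) kept 44.6% of their level at day 29 and had a TET effect of 1.02. The latter (5370) kept 60.01% and had a TET effect of 0.60. Matched others ran from 46.2% to 62.4% in kept share and from 2.08 to 0.84 in TET effect, so that the gap in TET effect was 1.06 next to low-methylated CpGs and 0.23 far from them.

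A measured neighbour told less about an isolated CpG the farther it was. Among CpGs with at least 100 reads in every column, TTKO day 0 levels of a CpG and its nearest measured neighbour correlated with r = 0.964 up to 10 bp (668535 CpGs), and with 0.604 between 100 and 150 bp (42345). For isolated CpGs r was 0.555 up to 300 bp (26494), 0.449 up to 1000 bp (5578) and 0.140 beyond (4947). The mean difference in level between neighbours rose from 4.83 to 25.2 points. In WT the correlation went from 0.960 to 0.137. These correlations are across CpGs of the same pooled libraries, neighbours can lie on the same reads at short distance, and no p is given.

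The bases beside the CpG were compared over all isolated CpGs, including those with unmeasured CpGs near. A cytosine directly before the CpG, read on both strands (CCGG, 4035 isolated CpGs), went with a TET effect of 1.20, against 0.70 at equal TTKO level where neither strand had it, and the difference was positive on 20 of 20 chromosomes. For guanine in that place (GCGC) the effect was 0.50 against 0.88, and for thymine (TCGA) 0.49 against 0.80, both lower on 20 of 20. Adenine (ACGT) had 0.80 against 0.72, higher on 19 of 20. Cytosine at 2 bases before the CpG went with 0.86 against 0.70, higher on 20 of 20, and thymine there with 0.64 against 0.89, lower on 20 of 20. At 3 bases before the CpG, cytosine went with 1.00 against 0.73, higher on 20 of 20. Adenine there had 0.69 against 0.77 and thymine 0.68 against 0.82, both lower on 20 of 20. In the other CpGs the same bases gave 2.18 against 1.29 for CCGG, 1.22 against 1.67 for GCGC and 1.1 against 1.74 for TCGA. Cytosine at 3 bases before gave 1.96 against 1.43 there, and thymine at 2 bases before 1.48 against 1.52. For ACGT and for cytosine at 2 bases before, the other CpGs went the opposite way, with 1.53 against 1.58 (lower on 17 of 20) and 1.56 against 1.64 (lower on 19 of 20).

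The kept share also differed by base. Isolated CpGs with thymine at 2 bases before the CpG on both strands kept 62.9% of their level at day 29, against 58.2% for those with none, and with guanine there they kept 46.8% against 52.1%. Cytosine at 3 bases before went with 60.01% against 53.6%, and ACGT with 48.5% against 52.0%. Over the 119 classes of 6 letters (2 bases on either side, strands joined) that held at least 100 isolated CpGs, the differences of a class from the rest, in isolated CpGs and in other CpGs, correlated with r = 0.853 for the TET effect and 0.952 for the kept share. Within isolated CpGs, TET effect and kept share correlated with r = 0.015 over these classes. These are correlations across sequence classes of the same libraries, given with no p.

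Some classes were picked for the size of their differences, each written by 1 of its strands. ACCGGC had a TET effect of 1.49 over 355 isolated CpGs, against 0.82 for the rest at equal level, and TCCGGA had 1.42 against 0.83. At the other end, TACGCA had 0.45 against 0.87 over 366 CpGs. Over 165 isolated CpGs, GGCGCC kept 36.0% of its level at day 29 against 46.0%. CACGCC kept 37.3% of its level at day 29 against 45.8%, and CTCGCC 37.0% against 45.5%, whereas TGCGCA kept 71.7% against 63.7%. For CACGCC the others gave 39.7% against 48.2%.

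Motifs of factors whose binding site holds a CpG were looked up on both strands. The E-box CACGTG held 865 isolated CpGs (1.33%, against 0.876% of the others), with a mean TTKO level of 54.9%, and these kept 45.3% against 47.7% for other isolated CpGs of equal level. The half-site of the CRE, TGACG, held 2201 (3.39% against 2.45%) and kept 51.7% against 54.4%. The ETS core CCGGAA, which overlaps the CCG contexts above, held 689 (1.06% against 1.18%), kept 64.1% against 60.8% and had a TET effect of 1.08 against 0.83. A match is a description of the letters and not of binding.

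Single members differed widely. The CpG named after Pcdh17 lay 844148 bp from the start of that gene and 1258 bp from any other CpG of mm9. With 333 reads at day 0, it stood at 72.1% (Wilson 95% interval 67 to 76.6%) in TTKO and at 64.3% (59.4 to 69.0%) in WT, and came to 37.7% (32.5 to 43.2%) at day 29. The CpG named after Vstm2a, 1107 bp from the next, had 68.3% in TTKO, 63.4% in WT and 22.7% at day 29. Another CpG on chromosome 8 (73645531), 78592 bp upstream of Gm17576 and 1095 bp from the next, had 56.6%, 55.3% and 16.7%. The WT levels were 7.80, 4.90 and 1.30 points lower, and in all 3 the intervals of the lines overlapped. Such intervals cover counting error only, since the replicates were pooled in each column.

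Members picked for their decay lay far apart. The CpG named after Tmem92-ps started at 53.9% in TTKO and stood at 39.7%, 24.8%, 17.0%, 13.9%, 6.80% and 1.40% at days 4 to 29, so that 2.60% of its level was kept, while in WT it had 52.4%. A CpG 380 bp upstream of Adprhl1 went from 50.5% to 1.40% and had 52.0% in WT. By contrast, a CpG in Sfi1 went from 43.7% to 40.2%, on 1649 reads at day 0. That is far above the members' median of 174, and whether the reads come from a single place was not tested.

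At high levels the extremes were CpGs in introns. One in Tll2 fell from 80.5% to 17.9% and one in Arhgap32 from 83.4% to 18.7%, with WT levels of 73.8% and 61.1%. One in Epsti1 had 85.6% at day 0 and 90.3% at day 29, and one in Pcsk2 82.9% and 86.7%. These 4 were picked by these values, so the values describe them and test nothing.

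The largest differences between the lines were in introns as well. The CpG in Garnl3 had 87.3% (82.5 to 91.0%) in TTKO and 7.90% (5 to 12.3%) in WT, and that in Agpat9 82.4% and 4.20%. The CpG in Arid5b, the gene of a DNA-binding protein, had 86.3% in TTKO and 8.20% in WT on 884 and 880 reads. All 3 kept most of their TTKO level at day 29, with 66.8%, 68.7% and 82.9%. In the sequences printed above, each of these CpGs has a cytosine directly before it on the plus strand. In the other direction, the CpG named after Tcp11l2 had 20.2% (17.3 to 23.5%) in TTKO and 54.0% (50 to 58%) in WT, and the CpG in Dennd1a 23.8% and 57.5%.

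Low in both lines were 1011 of the 21200 members eligible for naming. The best covered was a CpG 23865 bp downstream of the start of Mup5 on chromosome 4 (61472402), with 1.90% in TTKO on 4838 reads and 2.00% in WT. A CpG in Sfi1 had 4.70% and 1.60% on 4442 reads, and one 226 bp upstream of Gm14325 had 1.5% in both lines on 3743 reads. Read numbers this far above the members' median of 174 were found at all 3, and whether the reads come from 1 place was not tested.

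Gene lists gave a sample of loci by role. Isolated CpGs in the body of, or up to 5000 bp upstream of, 14 pluripotency genes numbered 49 (Tet1 is also in the next list), with a median of 21.6% in TTKO, 9.20% in WT and 3.1% at day 29, against 68.7%, 52.4% and 30.9% for all isolated CpGs. At Nanog, a factor of the stem cell state, 3 had a median of 6.30%, and at Esrrb, a nuclear receptor of that state, 13 had 25.6% (2.30 to 79.2%). At Tet1, 11 had 16.8% in TTKO and 9.20% in WT, so that Esrrb and Tet1 held much of the list. The other genes of the list lay on either side, from 2.30% for 1 member at Sall4 and 3.30% for 3 at Fgf4 to 67.7% for 4 at Nr5a2 and 73.5% for 1 at Klf4. Of the 49, 37 (75.5%) were called less methylated at day 29, and 21 (42.9%) less methylated in WT, against 90.02% and 46.1% of all isolated CpGs. These shares are not at equal level, and 15 of the 49 (30.6%) were under 10% in TTKO, against 7.55% of all isolated CpGs.

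The methylation machinery had 75 members, with medians of 55.0% in TTKO, 30.5% in WT and 15% at day 29. At Dnmt3a, itself floxed in these cells, 10 members had a median of 59.6% in TTKO and 15.1% at day 29, and at Tet2 11 had 36.3% and 9.20%. Of the 75, 70 (93.3%) were called lower at day 29, near the 90.02% of all isolated CpGs, and 41 (54.7%) lower in WT, where all isolated CpGs had 46.1%. At housekeeping genes (38 members at 15 genes) the median was 58.6% in TTKO but 16.4% in WT, and 24 (63.2%, against 46.1% of all isolated CpGs) were called lower in WT. Ywhaz, which encodes an adaptor protein, had 5 members with 68.1% in TTKO and 11.6% in WT, and Eno1, a glycolytic enzyme, had 2 with 63.2% and 8.15%. The lines were closer at Hprt, a purine salvage enzyme with 6 members, with 67% and 58%.

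Germline genes, many of which are silenced by methylation, had 29 members at 12 genes with medians of 72.6% in TTKO, 57.1% in WT and 39.8% at day 29, and 29 of 29 were called lower at day 29, against 90.02% of all isolated CpGs. None of the 29 was under 10% in TTKO, and 12 (41.4%, against 46.1% of all) were called lower in WT. At Ddx4, an RNA helicase of germ cells, 7 had 75.4%, 68.2% and 47.7%. Lower levels were found at Dazl, an RNA-binding protein, with 3 members at 14.1% in TTKO and 15.5% in WT, and at Asz1, with 1 member at 17.1% and 31.0%. Neural and Polycomb-marked developmental genes had 32 members with 66.8%, 39.8% and 31.5%, and 22 (68.8%, against 46.1% of all) were called lower in WT. At Pax6, a regulator of eye and brain development, 3 had 32.3% in TTKO and 1.30% in WT. Imprinted genes had 31 members at 12 genes with 64.7%, 50.7% and 33.3%, of which 26 (83.9%, against 90.02% of all) were called lower at day 29 and 17 (54.8%, against 46.1%) in WT. No list was tested against the other isolated CpGs.

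Gene bodies were counted next. Of 22367 protein-coding genes 10280 had an isolated CpG in the body, with a median of 2. Gm20388, a gene model of 4435 kb that spans other genes, held 197 (1.39% of its measured CpGs). The body of Fgfr2, a growth factor receptor, is 3009 kb long in this annotation and held 119 (2.57%). Both shares were below the 2.98% of the table. In Pde4d, a phosphodiesterase, 41 had a mean of 53.3% in TTKO, 40.5% in WT and 25.6% at day 29. In Msi2, an RNA-binding protein, 37 had 56.2%, 35.9% and 26.8%. The 37 in Etl4 (9.54% of its measured CpGs) were lower, with 42.2% in TTKO, 21.5% in WT and 14.4% at day 29, and kept 34.8% of their level, against 51.6% in Gm20388 and 56.2% in Fgfr2.

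One isolated CpG had values per replicate, since an amplicon covered it. It lies between genes on chromosome 5 (147970880), 29392 bp upstream of Gsx1, 192 bp from the nearest measured CpG of the capture table and 93 bp from the nearest CpG of mm9.
CpG named after Gsx1, chr5:147970820-147970941: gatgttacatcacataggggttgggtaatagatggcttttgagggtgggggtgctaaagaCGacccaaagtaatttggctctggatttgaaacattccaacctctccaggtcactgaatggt
In the pooled capture columns it had 17.4% in TTKO, 6.20% in WT and 2.00% in TTKO at day 29, on 115, 113 and 102 reads.

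By amplicon at day 0, the 3 TTKO replicates of this CpG had 23.9%, 31.4% and 18.1% (mean 24.5% ± 6.70, SD, n = 3), and the 3 WT replicates had 6.62%, 7.15% and 10.8% (8.20% ± 2.29). The groups did not overlap, and WT was lower by 1.92 on the log2 odds scale (SE 0.39, adjusted p = 0.0028, quasi-binomial model with limma over all amplicon CpGs), where 59.3% of the amplicon CpGs were called lower in WT.

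At day 29 in TTKO cells, the mock-treated replicates had 15.8%, 19.9% and 14.0% (16.6% ± 3.05, n = 3) and the Cre-treated ones 2.37%, 1.75% and 0.853% (1.66% ± 0.764). Every Cre replicate was below every mock replicate, and the log2 odds fell by 3.48 (SE 0.78, adjusted p = 0.00526, quasi-binomial model with limma over 384 CpGs), where 66.7% of CpGs were called lower. Without Cre replicate 2, the adjusted p by the same limma-moderated model was 0.0551 at a log2 odds ratio of -3.58. In WT cells at day 29, mock replicates had 8.28%, 8.31% and 9.21% and Cre replicates 4.19%, 0.98% and 5.60%. These did not overlap either, but the log2 odds ratio of -1.37 (SE 0.74) did not pass (adjusted p = 0.172, limma-moderated model over 392 CpGs), where 51.8% were called lower. The Cre effects in the lines differed by -2.11 (SE 1.08, adjusted p = 0.246, interaction term of the same model with limma), so a difference between them was not shown.

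Between these days the Cre-treated TTKO replicates had means of 13.9%, 9.59%, 11.4%, 8.78% and 6.94% for days 4, 8, 10, 13 and 17, and the mock-treated ones 20.0%, 20.1%, 20.1%, 22.6% (2 replicates, since replicate 1 had 10 reads) and 17.0%. A single Cre replicate at day 13 had 20.6% on 603 reads, beside 2.16% and 3.60%. In WT, mock-treated cells had means of 16.5%, 25%, 11%, 6.17% and 7.03% for days 4, 8, 10, 13 and 17. Cre-treated WT cells had means of 9.85%, 9.95%, 1.82%, 7.07% and 3.23% on the same days. The study's methods report a slight rise between days 4 and 8 in mock-treated WT cells, and also after Cre. They propose a side effect of the transduction that does not need Cre. The authors normalised WT Cre levels to mock for it, whereas the values here are not normalised. The WT Cre mean was above the mock mean at day 13, where the replicates overlapped, and below it on the other days. The study's methods call the replicates biological, and the p-values measure the spread between these samples.

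**Figure D5:**
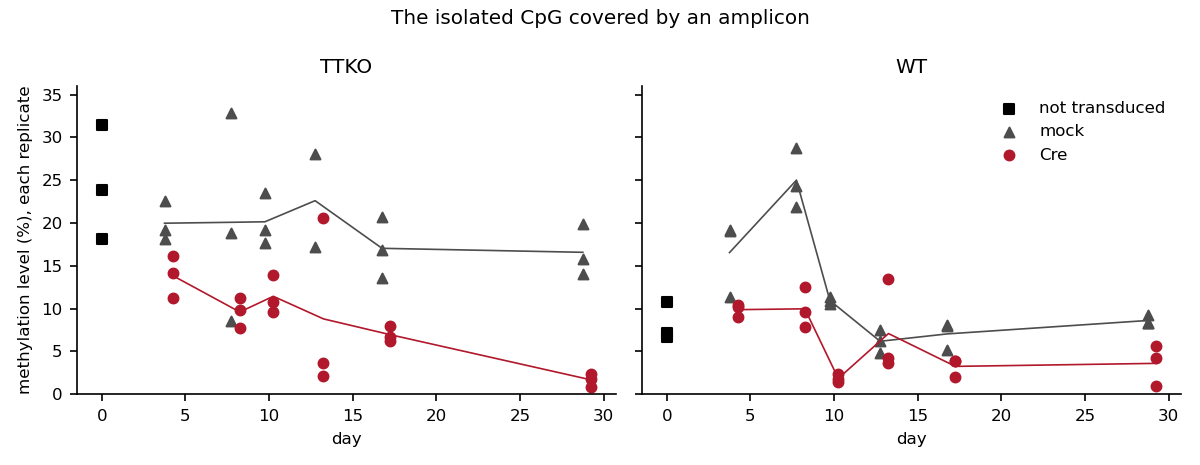
Methylation level (%) of the isolated CpG named after Gsx1 in each amplicon replicate by day, in TTKO (left) and WT (right), for cells not transduced (black squares), mock-treated (grey triangles) and Cre-treated (red circles), with lines through the means. The Cre-treated TTKO replicates reach 0.853 to 2.37% by day 29, below the mock-treated ones at 14.0 to 19.9%.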

How the data were processed

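Capture (SureSelect) and amplicon bisulfite libraries of mESCs were aligned by the authors to mm9 with Rbowtie in QuasR. The deposited capture table gives a coverage, a count of reads, and a level in percent per CpG and time point, with replicates pooled and at least 50 reads. The amplicon tables deposited by the authors give a coverage count and a fraction of methylated reads per replicate for 405 CpGs. The authors' own rates, confidence classes and TET activity, also in the capture table, were not used.

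Coverage times level, rounded, gave methylated reads. The isolated CpGs and the gene lists were chosen with earlier results of these data known. Other CpGs were weighted to the isolated CpGs' TTKO day 0 levels in bins of 1 point. The TET effect used counts with 0.5 added. Rates came from 6400 rate pairs with a binomial likelihood, DNMT3 activity declining at a rate of 0.5, a conversion error of 0.0025, and 8% of each starting level retained for incomplete excision. Features were read from NCBIM37 (all 2177608 CpGs matched a CG) and GENCODE M1. Repeats were not analysed here. Fisher's exact test was run per CpG on pooled reads, and a quasi-binomial logistic model per amplicon CpG with moderated dispersion not under 1 (limma 3.58.1 in R 4.3.3), all two-sided with Benjamini-Hochberg adjustment at 0.05. Other work used Python 3.11.15, numpy 2.4.6, pandas 2.3.3, scipy 1.17.1, statsmodels 0.14.6, numba 0.67.0 and matplotlib 3.10.9. The rates, the matching, Fisher's test and the amplicon model were tested on simulated data.

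Named CpGs had at least 150 reads in all 8 columns, no mm9 CpG within 150 bp and lay off chromosome 18. They were the 3 with the longest distance to a CpG, those with the 2 lowest and 2 highest kept shares at 40 to 60% and at 80% or more, the 3 largest TTKO minus WT and 2 largest WT minus TTKO differences, and the 3 best covered under 5% in both lines. One of these CpGs is not reported here. The 5 genes with most members and every member in an amplicon were also named, and 6-letter contexts were picked after their values were seen. Alternatives covered the isolation distance, coverage, matching variables, pseudocount, likelihood, leaving out each amplicon replicate and a replicate block. Matching on the day 4 level, GC content or distance to a low CpG, and leaving out columns over 1000 reads, were added after seeing the data.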

Additional observations from a re-analysis of the deposited data

How the results depend on the processing

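Of 97 alternative values, 82 stayed on their side or within 1 SD over chromosomes (counts: within 1.5 times). The differences in WT level and TET effect kept their sign in every alternative run. The difference in kept share, smaller than its SD over chromosomes, took either sign, from -0.67 to 0.64. The difference in WT level (8.67 points) was 7.90 with isolation at 100 bp, 9.90 at 300 bp, 7.96 with matching on place in gene models, 4.17 on GC content and 7.35 on distance to a low-methylated CpG. The TET effect difference (-0.76) was -0.68, -0.30 and -0.60 under the same 3 matchings. The difference in kept share (-0.01 points) was 0.64 for 20 to 80% at day 0 and -0.67 with matching on distance to a low CpG. That in log2 kde (0.00) was -0.14 with at least 100 reads and with matching on GC content, and that in log2 kme was 0.14 with matching on distance to a low CpG, each 1 grid step. With at least 100 reads in all columns, 37019 members remained. Of these, 34769 (93.9%) were called lower at day 29, beside 65.0% of the others at that depth. The share over all members was 90.02%. Causes of these shifts were not tested, except that fewer CpGs were tested in the last.

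Leaving out each amplicon replicate gave log2 odds ratios of -3.64 to -3.27 for Cre against mock in TTKO at day 29 (adjusted p from 0.00268 to 0.0551), -2.23 to -1.58 for WT against TTKO and -1.78 to -0.94 for Cre against mock in WT. With the replicate block they were -3.66, -1.90 and -1.48. Same-numbered replicates correlated between -0.10 and 0.07 in their deviations, so the numbers do not pair the samples, and the block changed no call. At least 500 reads could not be applied to the WT day 29 member, which had 357 reads in 1 replicate. Depth limits single members: near 174 reads, small differences between columns were not detectable.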
